A study of Rattus norvegicus with 9 samples.

Results

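The genes described here are 38 rat genes of glucose breakdown and of the response to low oxygen, chosen by name. They comprise 15 genes for glycolytic enzymes, 3 for the enzymes that set the level of fructose-2,6-bisphosphate and 6 for lactate and pyruvate control. These 6 act on the exchange between lactate and pyruvate or on the use of pyruvate in mitochondria. A further 4 serve oxygen sensing, and 10 are known to be induced by hypoxia. Of these 38 genes, 37 were found by symbol among the 19085 genes of the deposited table, and 35 had enough counts to be tested. The symbol Gapdh was matched to no row and that gene was not analysed here. The row of Aldoa held 0 to 6 counts per library and that of Ankrd37 held 1 to 13, so neither was tested. Aldoa is a highly expressed gene in most cells, and whether its row holds all of its reads was not tested.

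Glycolysis splits glucose into pyruvate in a chain of cytosolic enzymes and yields ATP without oxygen. Pyruvate is then either reduced to lactate by lactate dehydrogenase or burned in mitochondria, and osteoblasts are known for a high rate of lactate formation even when oxygen is present. The transcription factors HIF-1α and HIF-2α, encoded by Hif1a and Epas1, are marked for destruction by prolyl hydroxylases while oxygen is available. When stable they raise the transcription of hypoxia-inducible genes, which for HIF-1α include most glycolytic enzymes.

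Messenger RNA was sequenced in 9 libraries of primary osteoblasts, 3 in each of 3 groups. The cells came from the calvaria of male Sprague-Dawley rats 24 hours old, although the tissue label of the samples reads knee, and they had been kept in high-glucose DMEM with serum. All groups then spent 7 days in osteogenic medium with dexamethasone, β-glycerophosphate and ascorbic acid. The control group received nothing else, the thrombin group received the clotting protease thrombin at 20 U/mL, and cells of the PD03 group were given the same dose of thrombin together with the MEK inhibitor PD0325901, abbreviated PD03. The series description gives PD03 at 0.1 μM, whereas a treatment protocol in the labels gives 0.1 mM. No group received PD03 without thrombin, so PD03 against thrombin shows the addition of the inhibitor and PD03 against control shows both agents at once. The sources used here give no oxygen level for the cultures. The study calls the samples of a group independent but does not say whether they were separate cultures or animals, and the p-values measure only the spread between these samples, which may be technical.

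Total counts lay between 15447832 and 19841468 per library. Levels of 1 gene are given as CPM, counts divided by the library size after TMM scaling, and levels of different genes are compared only as FPKM, which also divides by gene length. A gene passed the test when its p-value from edgeR's quasi-likelihood test, adjusted by the Benjamini-Hochberg method over 13256 tested genes, was under 0.05. It was called a DEG when its log2 fold change was also above 0.58 in size. In bulk libraries such as these, fewer cells of a type and less RNA per cell cannot be told apart.

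Among osteoblast markers, the collagen gene Col1a1 alone took 4.18% to 5.05% of the counts in the control and thrombin libraries and 6.78% to 6.96% in the PD03 libraries. The late markers Bglap (1 to 5 counts per library), Ibsp (0 to 1) and Dmp1 (0 to 4) were close to absent, and Alpl, the gene of bone alkaline phosphatase, had 6 to 62 counts. Other markers were well detected, with 509 to 906 counts per library for Runx2, 59 to 122 for Sp7 and 817 to 3349 for Spp1 (osteopontin). Of the 6 tested osteoblast markers, 3 (Runx2, Sp7 and Spp1) were higher and 3 (Alpl, Col1a1 and Col1a2) lower in thrombin against control, and 3 (Alpl, Col1a1 and Col1a2) were higher and 2 (Runx2 and Spp1) lower in PD03 against thrombin. Some defining markers of other cell types were at or near 0, with 0 to 6 counts for the leukocyte gene Ptprc, 1 to 8 for the endothelial gene Pecam1, 0 to 1 for the fat cell gene Adipoq and 0 to 3 for the muscle gene Myog. Other genes of those lists were detected, with 249 to 562 counts for Cd14, 113 to 207 for Acp5, 100 to 172 for Tek and 91 to 158 for Des, and the cartilage collagen gene Col2a1 had 783 to 1448. The summed level of 9 myeloid markers was 29.4 to 33.1 CPM in the control, 37.3 to 42.1 CPM in the thrombin and 28.6 to 29.6 CPM in the PD03 libraries. Summed levels of 7 chondrocyte markers were 94.9 to 106 CPM in the control, 70.2 to 76.7 CPM in the thrombin and 82.8 to 90.9 CPM in the PD03 libraries, mostly from Col2a1. The 6 adipocyte markers, of which Lpl made up nearly all, summed to 203 to 213, 98.4 to 104 and 155 to 166 CPM in the same order. The 5 endothelial markers summed to at most 14.1 CPM, the 6 skeletal muscle markers to at most 14.7 CPM and the 2 erythroid markers to at most 0.389 CPM in any library. Of all tested genes, 14.1% were higher and 14.6% lower in thrombin against control, and 25.3% and 24.5% in PD03 against thrombin. In thrombin against control, 1 of 3 tested myeloid, 5 of 6 chondrocyte, 2 of 2 adipocyte, 0 of 3 endothelial and 1 of 4 muscle markers passed the test, and in PD03 against thrombin 2, 3, 1, 2 and 1 of them passed in the same order. The part that these cells may have in the results below was not tested.

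RefSeq (GRCr8) holds a promoter window, 250 bases before to 50 bases after a gene's start, for 34 of the 38 genes. HIF binds to the core of the hypoxia response element, and the windows were searched on both strands for 2 forms of this core, ACGTG and GCGTG. At least 1 of the 2 was found in 25 of the 34 genes (73.5%), in 63.3% of 9906 tested genes with a window and in 44.6% of all 27457 RefSeq genes with a window of the same length. By role, a match was found for 11 of 14 glycolytic enzyme genes, 1 of 3 genes for fructose-2,6-bisphosphate enzymes, 5 of 6 genes for lactate and pyruvate control, 2 of 4 oxygen-sensing genes and 6 of 7 hypoxia-inducible targets. The windows are shown for the 4 members with the largest fold change among the DEGs that hold a match. They are written 5′ to 3′ on the strand of the gene, and capitals mark the matches.

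Car9 (GRCr8 chr5:62558774-62559073, + strand): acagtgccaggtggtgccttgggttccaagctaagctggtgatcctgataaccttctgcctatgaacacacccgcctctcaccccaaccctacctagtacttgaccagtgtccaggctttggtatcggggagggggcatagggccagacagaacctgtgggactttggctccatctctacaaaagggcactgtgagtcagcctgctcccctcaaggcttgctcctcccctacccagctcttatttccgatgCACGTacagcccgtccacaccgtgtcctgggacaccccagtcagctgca

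Bhlhe40 (GRCr8 chr4:143174200-143174499, + strand): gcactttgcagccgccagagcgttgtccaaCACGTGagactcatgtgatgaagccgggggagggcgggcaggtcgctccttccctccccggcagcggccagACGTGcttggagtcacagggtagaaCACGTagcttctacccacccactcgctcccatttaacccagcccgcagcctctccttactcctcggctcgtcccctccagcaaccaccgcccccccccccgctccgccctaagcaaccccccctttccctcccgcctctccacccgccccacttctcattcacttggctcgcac

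Ldhb (GRCr8 chr4:177177359-177177658, - strand): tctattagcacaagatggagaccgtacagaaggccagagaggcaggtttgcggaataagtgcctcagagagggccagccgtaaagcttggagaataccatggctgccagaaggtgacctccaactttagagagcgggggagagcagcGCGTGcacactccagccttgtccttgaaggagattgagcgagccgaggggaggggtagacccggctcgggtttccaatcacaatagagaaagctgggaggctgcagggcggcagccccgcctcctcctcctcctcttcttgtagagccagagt

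Pfkfb3 (GRCr8 chr17:71944683-71944982, + strand): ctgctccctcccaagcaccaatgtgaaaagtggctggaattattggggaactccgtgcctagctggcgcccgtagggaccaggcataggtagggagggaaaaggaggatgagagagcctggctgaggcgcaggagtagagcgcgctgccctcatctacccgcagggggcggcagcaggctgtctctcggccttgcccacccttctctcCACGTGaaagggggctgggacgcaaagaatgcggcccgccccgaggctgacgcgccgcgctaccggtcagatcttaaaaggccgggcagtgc

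The Bhlhe40 window held 4 matches, of which 2 overlap in the letters CACGTG from position -220 to -215 before the start, and the others lie at -149 to -145 and at -124 to -120. In the Pfkfb3 window, 2 matches overlap in the same 6 letters from -42 to -37. The Ldhb window held 1 match at -103 to -99 and the Car9 window 1 match at 2 to 6 after the start. The windows of Hk2 and Egln3, both DEGs, held neither form, which says only that these letters are not in these windows. A match is a description of the sequence and not evidence of binding.

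Across the 3 groups, 28 of the 35 tested members differed in a test of any difference, against 56% of all tested genes. In thrombin against control, 13 members were higher and 6 lower with an adjusted p under 0.05, while 14.1% of all genes were higher and 14.6% lower. Called DEG there were 4 higher and 1 lower member (2.62% and 5.44% of all genes). In PD03 against thrombin, 9 members were higher and 16 lower (25.3% and 24.5% of all genes), of which 3 and 5 were DEGs (9.61% and 6.31% of all genes). In PD03 against control, 10 members were higher and 12 lower (19.7% and 20.2% of all genes), of which 2 and 1 were DEGs (4.9% and 4.07% of all genes). These comparisons share groups and are therefore not independent of each other.

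The median log2 fold change of the 35 members was 0.06 in thrombin against control, with -0.01 for all genes. In PD03 against thrombin it was -0.01, with 0.01 for all genes, and in PD03 against control it was 0.04, with -0.004 for all genes, but -0.07 when libraries were scaled by their totals. That scaling moved the median of all genes in PD03 against control to -0.12. Under it, 5 members in place of 10 were higher in PD03 against control and 17 in place of 12 lower. With Col1a1 taken out before scaling, the counts of members past the test and called DEG were the same as those above in all 3 comparisons.

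**Figure D1:**
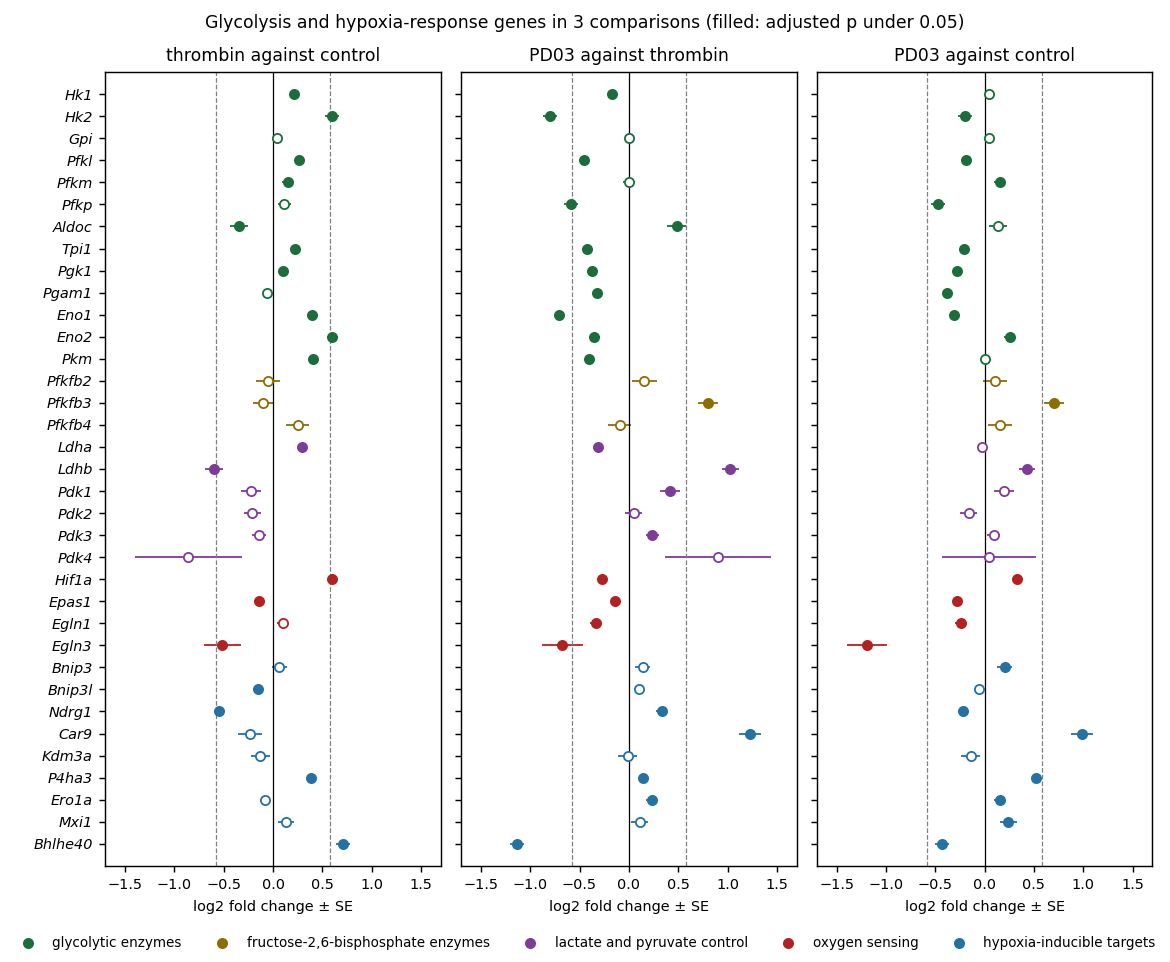
Log2 fold change with its standard error (x axis) for the 35 tested members (y axis) in the 3 comparisons, coloured by role, with filled points for adjusted p under 0.05 and dashed lines at a log2 fold change of 0.58 in size. The glycolytic enzymes lie mostly to the right of 0 for thrombin against control and to the left for PD03 against thrombin, and Car9, Ldhb and Bhlhe40 lie farthest out for PD03 against thrombin.

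The glycolytic enzymes were mostly higher with thrombin and lower with thrombin plus PD03. Of 13 tested enzyme genes, 9 rose and 1 fell in thrombin against control, with a median log2 fold change of 0.22, while 14.1% of all tested genes were higher and 14.6% lower. In PD03 against thrombin, 1 rose and 10 fell (median -0.37), against 25.3% and 24.5% of all genes. In PD03 against control, 2 rose and 7 fell (median -0.19), against 19.7% and 20.2% of all genes. Together the 14 enzyme genes with a row, that of Aldoa nearly empty, took 0.491%, 0.495% and 0.501% of all counts in the control libraries, 0.590%, 0.592% and 0.588% in the thrombin libraries, and 0.425%, 0.405% and 0.397% in the PD03 libraries. The 3 groups did not overlap. After TMM scaling the summed levels were 4715 to 4885 CPM, 5780 to 5811 CPM and 4182 to 4472 CPM in the same order, again without overlap.

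Among the 13 tested enzyme genes, which leave out Gapdh and Aldoa, those of the later steps had the highest FPKM. Mean FPKM was highest for Eno1 (enolase 1), at 559 in the control, 726 in the thrombin and 415 in the PD03 group. Pkm, the pyruvate kinase of most proliferating and mesenchymal cells, had means of 364, 477 and 337 FPKM, and Pgam1 (phosphoglycerate mutase) had 374, 353 and 264 FPKM. Pgk1 (phosphoglycerate kinase) had 250, 264 and 190 FPKM, Tpi1 (triosephosphate isomerase) 195, 224 and 155 FPKM, and Gpi (glucose-6-phosphate isomerase) 153, 155 and 145 FPKM. The hexokinases, phosphofructokinases, Aldoc and Eno2 lay between 7.34 and 51.9 FPKM. Between groups, FPKM carries a shift of all genes, with a median log2 fold change of -0.115 in PD03 against control (FPKM plus 0.1).

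**Figure D2:**
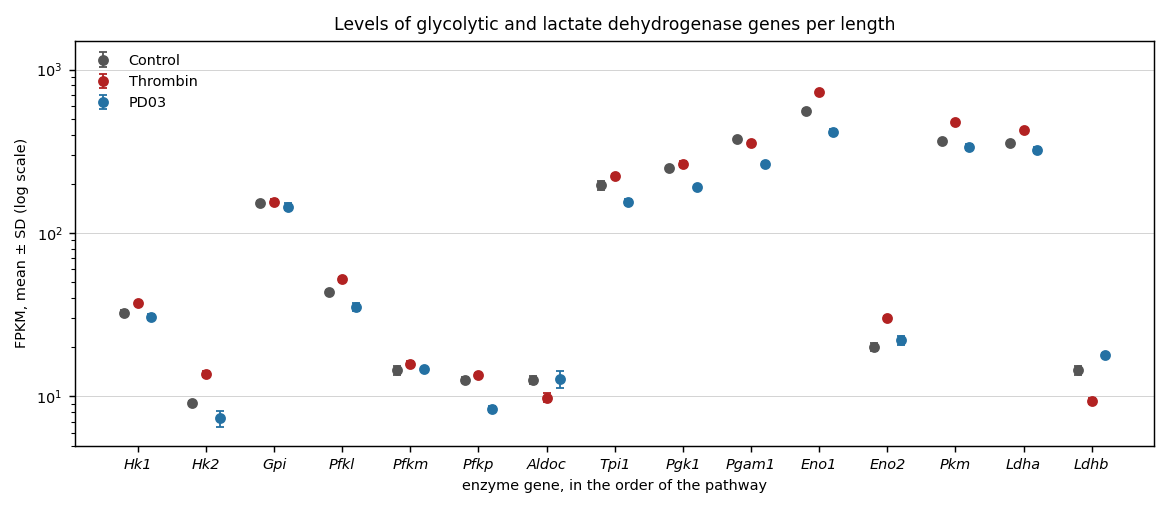
Mean FPKM with its SD over 3 libraries (y axis, log scale) of 13 glycolytic enzyme genes and both lactate dehydrogenase genes (x axis) in each group. Eno1, Pkm, Pgam1 and Ldha stand highest, and the means of Aldoc and Ldhb are lowest in the thrombin group.

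Among the enzymes that trap glucose in the cell, Hk2 (ENSRNOG00000006116), the inducible hexokinase, had 32.5, 31.8 and 33.7 CPM in the control libraries, 47.2, 51.4 and 49.8 CPM with thrombin and 25.8, 27.6 and 32.1 CPM with PD03. All thrombin libraries were above all others, whereas the control and PD03 libraries overlapped. Hk2 rose 1.51-fold with thrombin (log2 fold change 0.60 ± 0.069 SE, adjusted p = 2.74e-09) and fell 1.74-fold in PD03 against thrombin (-0.80 ± 0.071, adjusted p = 8.05e-13). Against control, the PD03 group was 1.15-fold lower (adjusted p = 0.0276), a call that was lost when Control 1, Control 3, PD03 1 or PD03 2 was left out (adjusted p 0.0530 to 0.199). Without Thrombin 2 the log2 fold change with thrombin was 0.573, just under the DEG threshold. Hk1, the constitutive hexokinase, rose by 0.22 with thrombin and fell by 0.17 in PD03 against thrombin, both on the log2 scale.

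Phosphofructokinase commits sugar to glycolysis, and it is built from subunits of 3 genes. Pfkp (ENSRNOG00000017163), the platelet type, had 33.4, 37.0 and 35.6 CPM in the control libraries, 39.3, 37.3 and 38.1 CPM with thrombin and 26.6, 25.1 and 24.4 CPM with PD03. All PD03 libraries were below all others, and the thrombin libraries were barely above the control libraries. Pfkp fell 1.50-fold in PD03 against thrombin (log2 fold change -0.59 ± 0.070 SE, adjusted p = 1.96e-09) and 1.39-fold in PD03 against control (-0.47 ± 0.071, adjusted p = 4.93e-07), and in thrombin against control it had a log2 fold change of 0.11 (adjusted p = 0.217). Its log2 fold change in PD03 against thrombin lay under the DEG threshold without Thrombin 1 (-0.579) or PD03 3 (-0.561). Pfkl, the liver type, rose by 0.26 with thrombin, fell by 0.45 in PD03 against thrombin and fell by 0.19 in PD03 against control, all on the log2 scale. Pfkm, the muscle type, was higher than in the control group by a log2 fold change of 0.15 with thrombin (adjusted p = 0.0427) and with PD03 (adjusted p = 0.0314). The first of these Pfkm calls was lost without Control 3, Thrombin 2 or Thrombin 3 (adjusted p 0.0588 to 0.222) and the other without Control 3, PD03 2 or PD03 3 (adjusted p 0.0710 to 0.234). With library totals neither passed (log2 fold changes 0.13 and 0.03).

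Eno1 (ENSRNOG00000017895) had the largest fall among the abundant enzymes. It had 1219, 1263 and 1288 CPM in the control libraries, 1658, 1644 and 1656 CPM with thrombin and 1053, 1007 and 972 CPM with PD03, and no 2 groups overlapped. Eno1 rose 1.32-fold with thrombin (log2 fold change 0.40 ± 0.032 SE, adjusted p = 1.82e-13), fell 1.64-fold in PD03 against thrombin (-0.71 ± 0.032, adjusted p = 5.60e-22) and fell 1.24-fold in PD03 against control (-0.31 ± 0.032, adjusted p = 1.03e-10).

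Eno2 (ENSRNOG00000013141), the enolase first known from neurons, had 54.9, 49.9 and 52.5 CPM in the control libraries, 78.2, 78.2 and 82.4 CPM with thrombin and 66.4, 58.0 and 62.9 CPM with PD03. The thrombin libraries were highest and the PD03 libraries stood between them and the control libraries, without overlap. Eno2 rose 1.52-fold with thrombin (log2 fold change 0.60 ± 0.057 SE, adjusted p = 1.27e-11), and it fell by 0.35 in PD03 against thrombin and was higher by 0.25 in PD03 against control on the log2 scale, a call that was lost with library totals (0.136, adjusted p = 0.0541) and with both FPKM inputs. Without Control 2 (0.571) or Thrombin 3 (0.576) its log2 fold change with thrombin lay under the DEG threshold. The FPKM ratio of Eno1 to Eno2 was 27.9 ± 1.86 (SD, n = 3) in the control, 24.1 ± 0.687 in the thrombin and 18.8 ± 1.16 in the PD03 group.

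Of the other enzymes, Pkm rose by 0.41 and Tpi1 by 0.22 with thrombin, and both fell in PD03 against thrombin, by 0.40 and 0.43, all on the log2 scale. Pkm in PD03 against control had a log2 fold change of 0.00 (adjusted p = 0.946), but -0.11 (adjusted p = 0.00282) with library totals. Pgk1 fell by 0.37 in PD03 against thrombin. Its rise of 0.10 with thrombin was lost without any 1 of Control 1, Control 2, Control 3, Thrombin 2 or Thrombin 3 (adjusted p 0.0626 to 0.155). Pgam1 did not pass the test with thrombin (log2 fold change -0.07) and fell by 0.32 in PD03 against thrombin and by 0.39 in PD03 against control. Gpi passed in no comparison, with log2 fold changes of 0.04, 0.00 and 0.04, but in PD03 against thrombin it had -0.10 (adjusted p = 0.0293) with library totals. Aldoc, an aldolase, moved opposite to the other enzymes that changed in these 2 comparisons: it fell by 0.34 with thrombin and rose by 0.48 in PD03 against thrombin. RefSeq names 34 further entries as copies of Eno1, 20 of Pkm, 13 of Pgam1, 9 of Pgk1, 9 of Aldoa and 5 of Tpi1, and reads that such copies share make the counts of these genes uncertain.

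Fructose-2,6-bisphosphate activates phosphofructokinase, and its level is set by enzymes that both make and remove it. Pfkfb3 (ENSRNOG00000018911), the form with the strongest bias towards synthesis, had 14.1, 13.4 and 14.2 CPM in the control libraries, 14.1, 13.8 and 11.1 CPM with thrombin and 22.8, 25.4 and 20.0 CPM with PD03. All PD03 libraries were above all others. Pfkfb3 rose 1.75-fold in PD03 against thrombin (log2 fold change 0.81 ± 0.10 SE, adjusted p = 7.26e-09) and 1.63-fold in PD03 against control (0.71 ± 0.10, adjusted p = 1.88e-07), and its log2 fold change for thrombin against control was -0.10 (adjusted p = 0.552). Pfkfb2 and Pfkfb4 passed the test in no comparison, with log2 fold changes between -0.09 and 0.25. Pfkfb3 changed in the opposite direction to the enzymes Hk2, Pfkl, Pfkp and Eno1 in PD03 against thrombin.

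The 2 lactate dehydrogenase genes moved in opposite directions. Ldha, whose product favours the formation of lactate, was among the most abundant members with 353, 428 and 320 FPKM in the control, thrombin and PD03 groups. It rose by 0.30 with thrombin and fell by 0.32 in PD03 against thrombin on the log2 scale. In PD03 against control Ldha had a log2 fold change of -0.02 (adjusted p = 0.631), but -0.14 (adjusted p = 0.000385) with library totals. RefSeq names 31 copies of Ldha. Ldhb (ENSRNOG00000013000), whose product favours the return of lactate to pyruvate, had 20.2, 20.6 and 18.5 CPM in the control libraries, 12.7, 12.7 and 13.7 CPM with thrombin and 26.8, 27.3 and 25.8 CPM with PD03. The 3 groups did not overlap, with thrombin lowest and PD03 highest. Ldhb fell 1.52-fold with thrombin (log2 fold change -0.60 ± 0.090 SE, adjusted p = 8.18e-07), rose 2.04-fold in PD03 against thrombin (1.03 ± 0.087, adjusted p = 2.36e-13) and rose 1.34-fold in PD03 against control (0.43 ± 0.083, adjusted p = 4.72e-05). Without Control 2 (-0.568) or Thrombin 2 (-0.578) its log2 fold change with thrombin lay under the DEG threshold.

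The FPKM ratio of Ldha to Ldhb was 23.6, 23.5 and 26.6 in the control libraries, 46.1, 47.2 and 43.7 in the thrombin libraries and 18.6, 17.3 and 17.9 in the PD03 libraries. The thrombin libraries were highest and the PD03 libraries lowest, without overlap. The pyruvate dehydrogenase kinases, which hold back the use of pyruvate in mitochondria, included Pdk1 and Pdk3, which rose in PD03 against thrombin. Pdk1 rose by 0.42 and Pdk3 by 0.24 on the log2 scale, and the latter call was lost with library totals (log2 fold change 0.14). Pdk2 passed the test in no comparison, but with library totals it was lower in thrombin against control (-0.23, adjusted p = 0.0396) and in PD03 against control (-0.28, adjusted p = 0.00646). Pdk4, at 4 to 15 counts per library, had log2 fold changes of -0.86, 0.90 and 0.05 with large errors and also passed in no comparison.

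**Figure D3:**
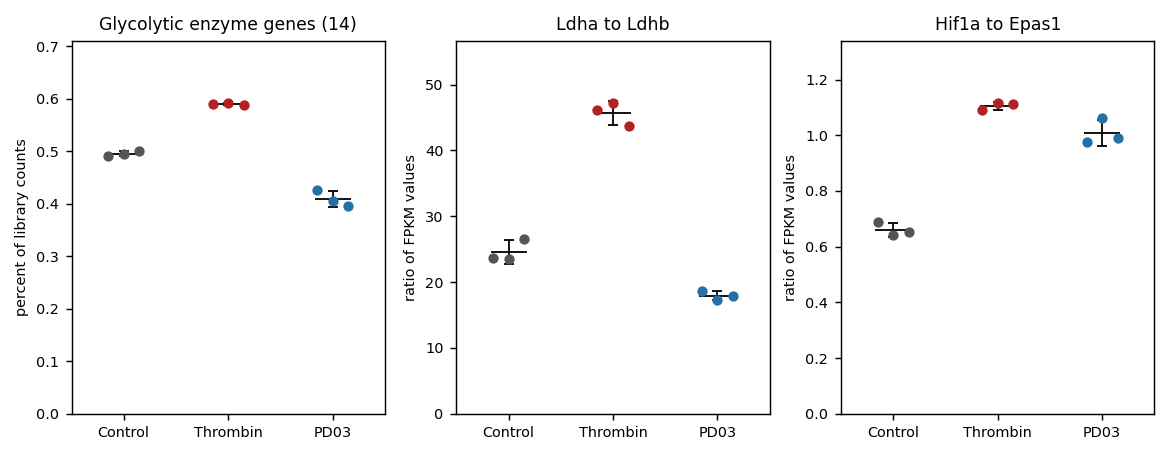
Share of all library counts held by 14 glycolytic enzyme genes, FPKM ratio of Ldha to Ldhb and FPKM ratio of Hif1a to Epas1 (y axes, from 0) in each library by group, with horizontal bars for means and error bars for SD, n = 3. The thrombin libraries stand highest in all 3 panels, and PD03 stands lowest in the first and second panels but between the other groups in the last.

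Among the oxygen-sensing genes, Hif1a (ENSRNOG00000008292) had 273, 255 and 262 CPM in the control libraries, 392, 395 and 408 CPM with thrombin and 309, 344 and 337 CPM with PD03. The groups did not overlap, with PD03 between the other two. Hif1a rose 1.51-fold with thrombin (log2 fold change 0.60 ± 0.039 SE, adjusted p = 2.29e-16), fell 1.21-fold in PD03 against thrombin (-0.27 ± 0.039, adjusted p = 1.22e-07) and was 1.25-fold higher in PD03 against control (0.32 ± 0.040, adjusted p = 5.81e-09). Without Control 2 (0.578) or with library totals (0.579) its log2 fold change with thrombin lay just under the DEG threshold.

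Epas1 (ENSRNOG00000021318) had 493, 496 and 501 CPM in the control libraries, 448, 441 and 457 CPM with thrombin and 395, 404 and 425 CPM with PD03. The control libraries were highest and the PD03 libraries lowest, without overlap. Epas1 fell by 0.15 with thrombin, by 0.14 in PD03 against thrombin and by 0.28 in PD03 against control on the log2 scale. The FPKM ratio of Hif1a to Epas1 was 0.661 ± 0.0260 (SD, n = 3) in the control, 1.11 ± 0.0146 in the thrombin and 1.01 ± 0.0465 in the PD03 group.

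The prolyl hydroxylase genes Egln1 and Egln3 were both lower with PD03. Egln1 (ENSRNOG00000063609), for the main HIF hydroxylase, had 56.6, 56.6 and 53.8 CPM in the control libraries, 60.7, 61.5 and 56.5 CPM with thrombin and 49.9, 45.1 and 46.5 CPM with PD03, and only the PD03 libraries stood apart from both other groups. It fell by 0.34 in PD03 against thrombin and by 0.24 in PD03 against control on the log2 scale. RefSeq names 6 copies of Egln1, so its counts are uncertain.

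Egln3 (ENSRNOG00000005053), a hydroxylase gene that HIF itself induces, was low, with 4.68, 6.95 and 7.83 CPM in the control libraries, 4.34, 3.84 and 5.36 CPM with thrombin and 3.02, 3.30 and 2.14 CPM with PD03. The PD03 libraries were below all others, while control and thrombin overlapped. Egln3 fell 2.28-fold in PD03 against control (log2 fold change -1.19 ± 0.20 SE, adjusted p = 5.41e-06). It fell 1.60-fold in PD03 against thrombin (-0.67 ± 0.21, adjusted p = 0.00701), but without Thrombin 3 (adjusted p = 0.0618) or PD03 3 (adjusted p = 0.0585) it did not pass. In thrombin against control it had a log2 fold change of -0.51 (adjusted p = 0.0344), which did not pass without Control 2, Control 3, Thrombin 1 or Thrombin 2 (adjusted p 0.0819 to 0.240). Nor did it pass with DESeq2 (adjusted p = 0.0747), with limma voom (0.0512) or with the FPKM inputs (0.0734 and 0.101).

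The known hypoxia-inducible targets moved in both directions. Of 9 tested, 2 rose and 2 fell with thrombin, 4 rose and 1 fell in PD03 against thrombin, and 5 rose and 2 fell in PD03 against control. As shares these were 22.2% and 22.2% with thrombin (14.1% and 14.6% of all genes), 44.4% and 11.1% in PD03 against thrombin (25.3% and 24.5%) and 55.6% and 22.2% in PD03 against control (19.7% and 20.2%). The medians of their log2 fold changes were -0.08, 0.14 and 0.15. In PD03 against control, 3 of the 5 that rose (Bnip3, Ero1a and Mxi1) did not pass with library totals, while Bnip3l and Kdm3a passed as lower.

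Car9 (ENSRNOG00000017073), for a membrane carbonic anhydrase that removes acid and a classical HIF target, had 8.16, 9.53 and 10.1 CPM in the control libraries, 7.73, 7.46 and 8.34 CPM with thrombin and 19.2, 18.5 and 17.3 CPM with PD03. All PD03 libraries stood far above all others, and the control and thrombin libraries overlapped. Car9 rose 2.34-fold in PD03 against thrombin (log2 fold change 1.22 ± 0.11 SE, adjusted p = 1.79e-12) and 1.98-fold in PD03 against control (0.99 ± 0.11, adjusted p = 6.22e-10), and its log2 fold change for thrombin against control was -0.24 (adjusted p = 0.149). It was the largest rise among the tested members in both comparisons with PD03.

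Bhlhe40 (ENSRNOG00000007152), for a transcriptional repressor of the clock and of hypoxia responses, showed the reverse order. It had 53.5, 53.3 and 58.8 CPM in the control libraries, 86.2, 91.1 and 92.6 CPM with thrombin and 33.1, 45.7 and 44.5 CPM with PD03. The groups did not overlap, with thrombin highest and PD03 lowest. Bhlhe40 rose 1.63-fold with thrombin (log2 fold change 0.71 ± 0.069 SE, adjusted p = 2.85e-11), fell in PD03 against thrombin (-1.14 ± 0.071, adjusted p = 1.80e-17) and fell 1.35-fold in PD03 against control (-0.43 ± 0.074, adjusted p = 6.29e-06).

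**Figure D4:**
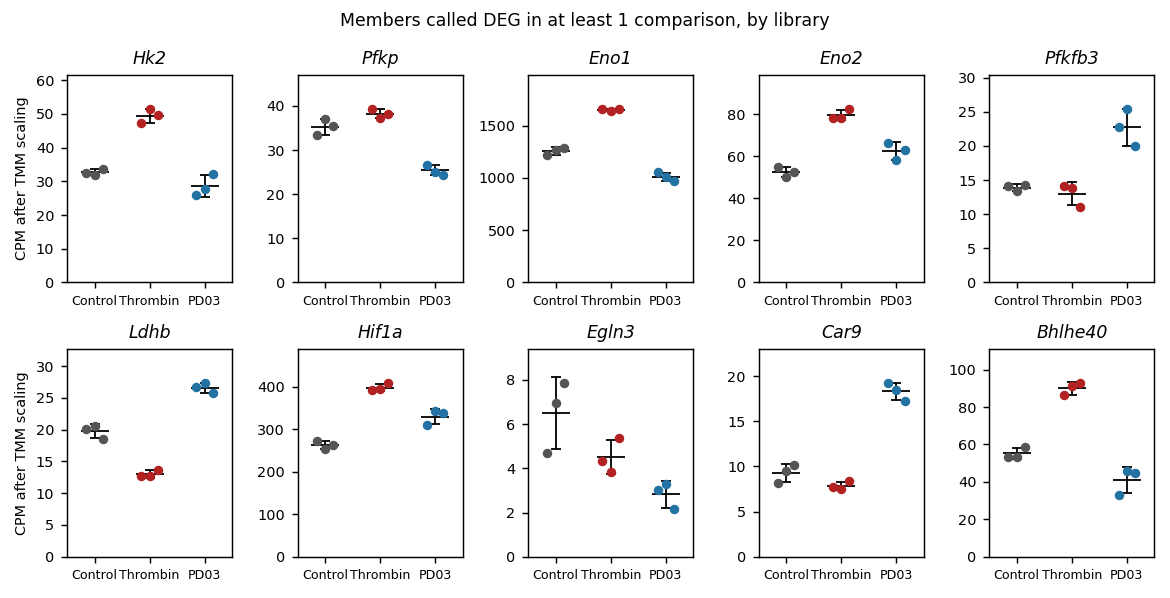
Levels in CPM after TMM scaling (y axes, from 0) of the 10 members called DEG in at least 1 comparison, with a point per library and bars for mean and SD of 3 libraries in each group. Hk2, Eno1, Eno2, Hif1a and Bhlhe40 are highest in all thrombin libraries, Pfkfb3, Ldhb and Car9 are highest in all PD03 libraries, and Egln3 is lowest in the PD03 libraries.

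Among the other targets, Ndrg1, a stress-response gene, fell by 0.55 with thrombin, rose by 0.33 in PD03 against thrombin and was lower by 0.21 in PD03 against control, all on the log2 scale. P4ha3, for a subunit of the collagen prolyl hydroxylase, rose by 0.38 with thrombin and was higher by 0.52 in PD03 against control. Its rise of 0.14 in PD03 against thrombin was lost with library totals (log2 fold change 0.04). Ero1a, for an oxidase that forms disulfide bonds in secreted proteins, rose by 0.23 in PD03 against thrombin. That call was lost with both FPKM inputs (log2 fold changes 0.125 and 0.131, adjusted p 0.0676 and 0.0666). The gain of PD03 over control was 0.15, a call lost without Control 2 or PD03 2 (adjusted p 0.121 to 0.161).

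The mitophagy gene Bnip3l fell by 0.16 with thrombin on the log2 scale, which did not pass without Control 1 or Thrombin 3 (adjusted p 0.0564 to 0.0949). Bnip3l did not pass in PD03 against control, but with library totals it was lower there (-0.17, adjusted p = 0.00457). Its relative Bnip3 was higher by 0.20 in PD03 against control, a call lost without Control 1, Control 2, PD03 2 or PD03 3 (adjusted p 0.0626 to 0.135). Mxi1, for an antagonist of Myc, was higher by 0.24 in the same comparison, lost without Control 2, Control 3, PD03 2 or PD03 3 (adjusted p 0.0515 to 0.141). Kdm3a, for a histone demethylase, passed the test in no comparison. In PD03 against control it was lower, however, with library totals (-0.26, adjusted p = 0.0249) and without PD03 2 (-0.26, adjusted p = 0.0376). RefSeq names 8 copies of Bnip3.

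Lists of neighbouring pathways held 76 further genes, of which 74 had a row and 67 were tested. In all, 17 rose and 14 fell in thrombin against control, 21 rose and 17 fell in PD03 against thrombin, and 19 rose and 14 fell in PD03 against control. As shares these were 25.4% and 20.9% (14.1% and 14.6% of all genes), 31.3% and 25.4% (25.3% and 24.5%), and 28.4% and 20.9% (19.7% and 20.2%), so the falls in both comparisons with PD03 were close to the share of all genes. Of 7 tested genes for glucose and lactate transport, 3 rose and 1 (Slc16a7) fell with thrombin (42.9% and 14.3%). In PD03 against thrombin, 2 (Slc16a7 and Bsg) rose and 4 (Slc2a1, Slc2a3, Slc16a1 and Slc16a3) fell (28.6% and 57.1%). The product of Bsg is a partner of lactate carriers and not itself a carrier. Slc16a3, for the exporter that carries lactate out of glycolytic cells, had 46.0, 47.2 and 47.6 CPM in the control libraries, 104, 93.0 and 99.3 CPM with thrombin and 65.1, 68.5 and 65.6 CPM with PD03. The groups did not overlap, with PD03 between the others. Slc16a3 rose 2.10-fold with thrombin (log2 fold change 1.07 ± 0.054 SE, adjusted p = 3.56e-20) and fell by 0.57 in PD03 against thrombin on the log2 scale.

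Slc2a3, for a glucose importer of high affinity, did not pass the test with thrombin (log2 fold change 0.07, adjusted p = 0.451) and fell by 0.82 in PD03 against thrombin and by 0.75 in PD03 against control. Slc16a7, for a carrier that takes up pyruvate and lactate, rose by 0.74 in PD03 against thrombin. Of 11 genes for the entry of pyruvate into mitochondria or its use there, 3 rose and 2 fell with thrombin (27.3% and 18.2%, against 14.1% and 14.6% of all genes). In each comparison with PD03, 5 rose and 2 fell (45.5% and 18.2%). Of all genes, 25.3% rose and 24.5% fell in PD03 against thrombin, and 19.7% and 20.2% in PD03 against control. The falls with PD03 were thus no more frequent than among all genes. None of the 11 was a DEG, and the pyruvate carrier gene Mpc2 moved most, by 0.50 on the log2 scale in PD03 against thrombin. Among the pentose phosphate genes, Rpia (ribose-5-phosphate isomerase) fell by 0.67 on the log2 scale in PD03 against control, where Rpe and Tkt fell by 0.20 and 0.34. Of 8 tested genes for other glycolytic isoenzymes, 1 passed the test in any comparison, the ADP-dependent glucokinase gene Adpgk, higher by 0.16 in PD03 against control. This was 12.5% of the 8, against 19.7% of all genes. Some of the 8 had few counts, with 2 to 18 per library for Hkdc1. The names of genes in these lists other than Slc16a3, Slc2a3, Slc16a7, Rpia, Arnt2, Vldlr, Ddit4 and Stc2 were added after their values were seen. Leaving out 1 of the 9 libraries could end the calls of Slc16a1, Slc16a7, Rpia, Mpc2 and Vhl with thrombin, of Hif1an and Cited2 in PD03 against thrombin, and of Adpgk, Mpc2, Rpe and Vhl in PD03 against control (adjusted p up to 0.341). With library totals, Slc16a1 with thrombin, Hif1an in PD03 against thrombin (0.107), and Adpgk (0.043), Mpc2 (0.084) and Vhl (0.086) in PD03 against control did not pass.

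Of 6 further oxygen-sensing genes, 2 (Arnt2 and Vhl) fell with thrombin (33.3%, against 14.6% of all genes). In PD03 against thrombin, 3 (Arnt2, Vhl and Hif1an) rose and 1 (Cited2) fell (50.0% and 16.7%, against 25.3% and 24.5%). In PD03 against control, 1 (Vhl) rose (16.7%, against 19.7%). Arnt2, for a partner of HIF, fell by 0.97 with thrombin and rose by 1.13 in PD03 against thrombin on the log2 scale. Arnt of the same list passed in no comparison (log2 fold changes -0.07, -0.05 and -0.13). It had a mean of 16.7 FPKM in the control group, where Arnt2 had 4.29. Of 29 further hypoxia-inducible targets, 10 rose and 8 fell with thrombin, 11 rose and 7 fell in PD03 against thrombin, and 9 rose and 6 fell in PD03 against control. Their shares were 34.5% and 27.6% (14.1% and 14.6% of all genes), 37.9% and 24.1% (25.3% and 24.5%), and 31.0% and 20.7% (19.7% and 20.2%), with the falls in both comparisons with PD03 near the share of all genes. Vldlr, for a lipoprotein receptor, rose in all 3 comparisons, by 0.47, 1.39 and 1.86. Ddit4, for an inhibitor of the growth kinase mTORC1, rose by 0.61 with thrombin and fell by 1.12 in PD03 against thrombin. Stc2, for a secreted glycoprotein, fell by 0.94 with thrombin and by 1.05 in PD03 against control, and had a log2 fold change of -0.11 in PD03 against thrombin (adjusted p = 0.136).

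The DEG calls differed in how far they lay from the threshold of 0.58. In thrombin against control, Hk2, Eno2, Ldhb and Hif1a had log2 fold changes of 0.60, 0.60, -0.60 and 0.60, and each stayed a DEG in 18 of 21 alternative settings of the processing. Bhlhe40 was a DEG in 21 of 21 settings in thrombin against control and in PD03 against thrombin. In PD03 against thrombin, Hk2, Eno1, Ldhb and Car9 were DEGs in 21 of 21 settings, Pfkfb3 in 20, and Pfkp and Egln3 in 18. In PD03 against control, Car9 and Egln3 were DEGs in 21 of 21 settings and Pfkfb3 in 19. A test against the threshold itself (glmTreat in edgeR) called no member in thrombin against control, with an adjusted p of 0.221 for Bhlhe40. In PD03 against thrombin it called Bhlhe40, Eno1, Hk2, Car9, Ldhb and Pfkfb3 (adjusted p 2.88e-09 to 0.0485), and in PD03 against control it called Car9 (adjusted p = 0.00206) and Egln3 (adjusted p = 0.0143).

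**Figure D5:**
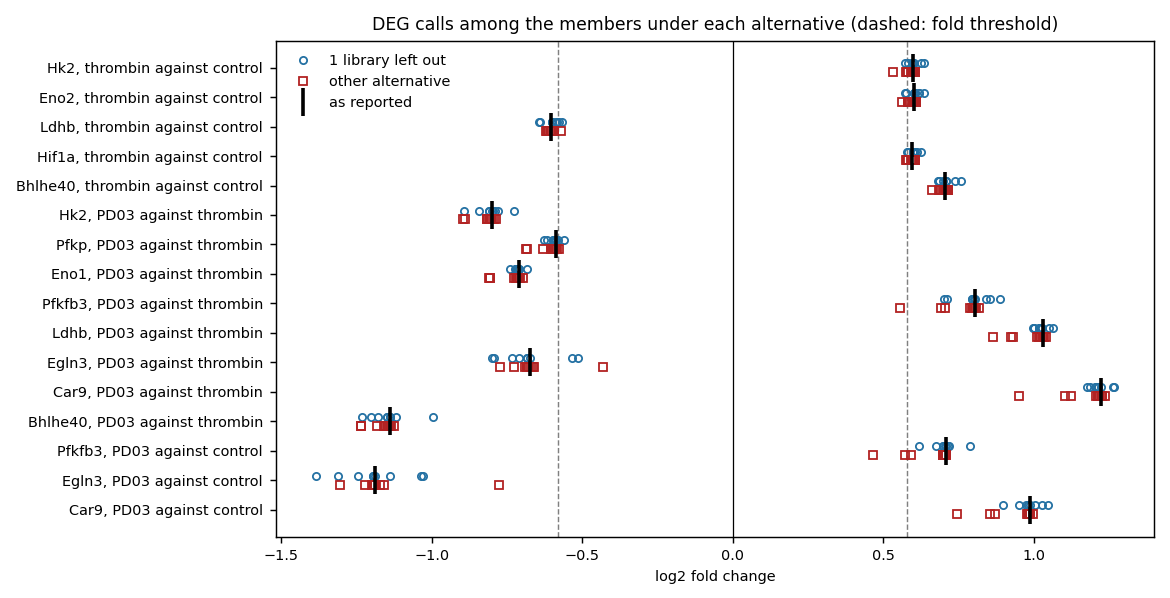
Log2 fold change (x axis) of each DEG call among the members (y axis) as reported and under each alternative, with dashed lines at 0.58 in size. Car9, Bhlhe40, Hk2, Eno1 and Ldhb in PD03 against thrombin stay beyond the line throughout, whereas the calls for Hk2, Eno2, Ldhb and Hif1a in thrombin against control lie close to it.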

How the data were processed

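Messenger RNA libraries were prepared with a NEBNext Ultra RNA kit, which does not mark strand, so reads from a gene and its antisense partner cannot be told apart. The authors deposited a table with a raw count and an FPKM value per gene and library. The paper names alignment with HISAT2 to Rnor_6.0 and counting with featureCounts, whereas the submitters' processing notes name HISAT2, HTSeq 0.13.5 and mRatBN7.2, so the build of the counts is open and no coordinates are given for them. Names were matched by symbol. No symbol is given for 2048 of the 19085 genes, and 79 symbols occur on several rows.

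The raw counts were fitted with edgeR 4.0.16 (R 4.3.3): 13256 genes kept by filterByExpr (minimum count 10), TMM scaling, and a quasi-likelihood model of all 9 libraries with group as the only term. The biological coefficient of variation was 4.28%. Over pairs of replicates, chi-square divided by its degrees of freedom was 1.82 to 3.99, above counting noise. In each group both pairs with replicate 1 (3.02 to 3.99) exceeded the pair of replicates 2 and 3 (1.82 to 2.13). The reason was not tested, and all libraries were kept. The procedure was tested on simulated data. CPM were computed from the counts with TMM factors of 0.949 to 1.04, and the FPKM values the authors deposited were used for levels between genes and as an alternative input, on the log2 scale with 1 or 0.1 added, with limma 3.58.1. The other alternatives were DESeq2 1.42.0, limma voom, other scalings and filters, glmTreat, the fold threshold, fits of 2 groups, a replicate block, and fits without each library. Figures were drawn with matplotlib 3.10.9. Promoter windows are those of RefSeq for GRCr8.

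The members and the lists were chosen with earlier results of these data known. Values in every library and the test are given for each member called DEG in any comparison and for Hif1a, Epas1, Egln1 and Egln3. From each list without members, up to 3 DEGs with the largest fold change are named. Results for some genes of these lists are not reported here.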

Additional observations from a re-analysis of the deposited data

How the results depend on the processing

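Of 2200 member fold changes recomputed under 21 alternatives, 2107 kept their direction where called and their side of the adjusted p of 0.05. Of the rest, 71 lost that call, 18 gained it and 4 reversed. These counts do not use the fold change threshold of a DEG. Hk2 in thrombin against control without Thrombin 2 (log2 fold change 0.573), for example, still passed the test but was no longer a DEG. With library totals, the median log2 fold change of the members was 0.045 in thrombin against control, -0.111 in PD03 against thrombin and -0.074 in PD03 against control, where 5 members were higher past the adjusted p and 2 were lower DEGs. Gpi in PD03 against thrombin turned to -0.097 and Pkm in PD03 against control to -0.112. With FPKM plus 1, the medians were 0.040, -0.098 and -0.075, 1 higher and 0 lower members were DEGs in thrombin against control, 5 members were higher and 1 a higher DEG in PD03 against control, and Pkm turned to -0.113. With FPKM plus 0.1, the medians were 0.044, -0.114 and -0.075, and PD03 against control had 5 higher members, 1 higher and 2 lower DEGs and Pkm at -0.113. These settings carry the shift of all genes that library totals bring.

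Medians, which lie near 0, also moved with upper-quartile factors (0.047 in thrombin against control), without a filter on low counts (-0.030 in PD03 against thrombin and -0.0060 in PD03 against control), with a mean count of at least 50 (-0.050 and 0.020), with limma voom (-0.033 and 0.0046) and with 2 groups only (0.079 in thrombin against control and -0.062 in PD03 against thrombin). The glmTreat test gave 0 higher and 0 lower DEGs in thrombin against control, 3 lower in PD03 against thrombin and 1 higher in PD03 against control. A threshold of 1 on the log2 scale gave 0 and 0, then 1 lower, then 0 higher. The cause of these moves was not tested, other than the stricter thresholds themselves.

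Leaving out 1 library gave 11 to 13 higher and 5 to 7 lower members in thrombin against control, with 2 to 4 higher DEGs (2 without Control 2) and 0 to 2 lower DEGs, and a median of 0.020 to 0.084. In PD03 against thrombin it gave 9 higher and 15 to 16 lower members, 3 higher DEGs and 3 to 5 lower DEGs (3 without PD03 3), and a median of -0.115 to -0.014. In PD03 against control it gave 6 to 10 higher members (6 without PD03 2), 11 to 12 lower members, 2 higher and 1 lower DEG, and a median of 0.0023 to 0.042.

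Deviations of same-numbered libraries from their group means, over all tested genes, had correlations of -0.046 to 0.052. For differently numbered libraries of different groups they were -0.056 to 0.055. Genes with few reads weigh as much in these correlations as other genes. The correlations cannot show whether same-numbered samples shared an animal or a day, which the sources used here do not say. With the replicate block, 13 members were higher and 6 lower in thrombin against control, and no member's call changed. Low counts limit Egln3, Pdk4 and Ankrd37.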
